A study of Mus musculus with 6 samples.

Results

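In EpH4 mouse mammary cells that had passed through epithelial-mesenchymal transition (EMT) and back, 54 genes fell below the level of both earlier stages. They are 0.31% of the 17428 genes with values. EpH4 is a near-normal mammary epithelial line. E cells were grown in normal medium, M cells were exposed to TGFβ1 for 7 days, and reverted epithelial (RE) cells had the same 7 days of TGFβ1 followed by 4 days in normal medium. Total RNA from 2 biological replicates of each stage was sequenced, 6 libraries in all, here named E1, E2, M1, M2, RE1 and RE2. RE cells differ from E cells in past TGFβ1 exposure and in the days spent in culture, which cannot be told apart.

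The values are coverage, that is, sequenced bases summed over each gene, and amount to the bases of 35782513 to 47928557 reads of 50 bases per library. For the choice of genes, each value was divided by its library total and expressed in ppm of that total. A gene was taken when the higher RE value, multiplied by 2, did not exceed the lowest of the 4 E and M values, and when that lowest value was at least 1 ppm, which 10931 genes reached. These values chose the genes, so their fall in RE cells is a description and carries no test. Levels below are ppm after TMM normalization between libraries, and 45 of the 54 genes also met the rule on that scale. Coverage grows with transcript length, so levels are compared between libraries and not between genes.

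Of the epithelial markers, Cdh1 (E-cadherin) lay between 244 and 327 ppm in all 6 libraries, and the 4 listed epithelial markers with values summed to 1240 to 1510 ppm in E, 1180 to 1210 in M and 715 to 758 in RE cells. Within this sum Cldn7 fell from 124 ppm in E to 33.5 in M (limma adjusted p = 6.24e-05), while Krt8 was at 202 and 319 ppm. In RE cells Krt18 was at 291 ppm (745 in E and 569 in M) and Krt8 at 127, while Cldn7 was at 49.5, above M. The 6 mesenchymal markers (Vim, Fn1, Cdh2, Zeb1, Zeb2 and Tnc) summed to 2460 to 5420 ppm in E, 31500 to 31600 in M and 10900 to 11900 in RE cells. Fn1 and Tnc supply most of this sum, and Tnc most of its fall, from a mean of 13223 ppm in M to 244 in RE, whereas Zeb1 was at 47.1 and 43.2 ppm. The 4 fibroblast markers with values summed to 70.1 to 70.9 ppm in E, 579 to 679 in M and 378 to 439 in RE cells. Of these, Pdgfra and Dcn were called higher in RE than in both other stages, Col1a1 and Col1a2 higher than in E only. These sums move with the stages compared below, and their part in the results was not tested. E replicates differed most, with a standard deviation of the log2 difference over the 13893 genes tested of 0.558, against 0.318 for M and 0.309 for RE. Among the 54 genes, Wnt7a, Cntfr, Stbd1, Trim46, Odz4 and Cdh10 differed over 2-fold between E1 and E2 on log2(ppm + 0.1). Only Muc16 and Dub1 did so between RE1 and RE2, and none between M1 and M2. In whole cultures, fewer cells that make a transcript and less of it per cell cannot be told apart.

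EMT is the program by which epithelial cells loosen their junctions and take on a migratory, matrix-producing state, and TGFβ1 is its best known inducer in mammary cells. In the mammary gland the EGF family ligand amphiregulin is needed for ducts to grow out, and cells of the gland also use YAP/TAZ-TEAD transcription, which reads mechanical tension, and Wnt signals. All of these have members among the 54 genes, beside keratins, cytokines, proteases and matrix proteins.

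Promoter sequences are shown for 3 of the genes, a growth factor, a YAP/TAZ-TEAD target and a protease, chosen after their motifs were seen. They are the 250 bases before the RefSeq transcription start on GRCm38.p6, 5′ to 3′ on the strand of the gene. Capitals mark motif letters: in Areg (chr5:91139349-91139598, plus strand) a cyclic AMP response element and a TATA box, in Ankrd1 (chr19:36119845-36120094, minus strand) 2 TEAD motifs in reverse complement, and in Mmp10 (chr9:7502092-7502341, plus strand) an AP-1 motif and a TATA box.

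Areg promoter: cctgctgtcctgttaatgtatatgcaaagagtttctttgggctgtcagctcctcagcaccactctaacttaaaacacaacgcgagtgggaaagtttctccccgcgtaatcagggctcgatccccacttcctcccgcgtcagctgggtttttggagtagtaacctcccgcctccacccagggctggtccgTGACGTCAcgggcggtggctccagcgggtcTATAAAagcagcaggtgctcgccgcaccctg

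Ankrd1 promoter: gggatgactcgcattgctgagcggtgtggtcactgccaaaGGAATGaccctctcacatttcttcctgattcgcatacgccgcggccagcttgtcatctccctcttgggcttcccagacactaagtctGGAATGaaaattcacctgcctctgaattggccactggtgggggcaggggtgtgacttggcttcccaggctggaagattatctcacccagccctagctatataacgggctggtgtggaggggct

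Mmp10 promoter: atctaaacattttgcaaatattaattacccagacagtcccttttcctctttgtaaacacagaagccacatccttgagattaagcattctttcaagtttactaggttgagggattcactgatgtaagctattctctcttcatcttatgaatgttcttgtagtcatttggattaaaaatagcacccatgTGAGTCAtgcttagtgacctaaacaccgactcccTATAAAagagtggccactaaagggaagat

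The TGACGTCA of Areg begins 61 bases before the start and is found in 1.79% of the 32851 mouse promoters of 300 bases (250 before and 50 after the start). The AP-1 letters TGANTCA are found in 7.81%, the TEAD letters CATTCC in 14.7%, and TATAAA between 40 and 15 bases before the start in 1.99%, searched on both strands except for the last. A match describes letters, not binding. Only 40 of the 54 genes (74.1%) had a promoter entry, under the 80% set for comparing shares, so a share of the 54 with each motif is void. The other motifs searched, the ATF4 composite TGATGCAA (0.895% of promoters) and the CArG box (1.63%), are in none of the 3 windows. The Krt7 and Wnt7a promoters held none of these motifs. The TEAD letters are not particular to YAP/TAZ-TEAD targets. They are also in the promoter of Edn1, which is not a listed target, 207 bases before the start. Other genes of the 54 with them include Calr4, Cdh10 and Sp8, while Areg, a listed target, has none.

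Across the 54 genes, the ratio of the lowest E or M value to the highest RE value had a median of 2.53. It was at least 3 in 14 genes, at least 5 in 5 genes and largest, at 8.26, in P2ry12. The median log2 change from E to RE was -1.58, against 0.01 over all genes tested, and the median from M to RE was -2.39, against -0.02. The range was -3.71 to -1.02 from E and -5.86 to -1.36 from M. In 35 genes the lowest of the E and M values was an E library, and in 19 an M library.

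**Figure D1:**
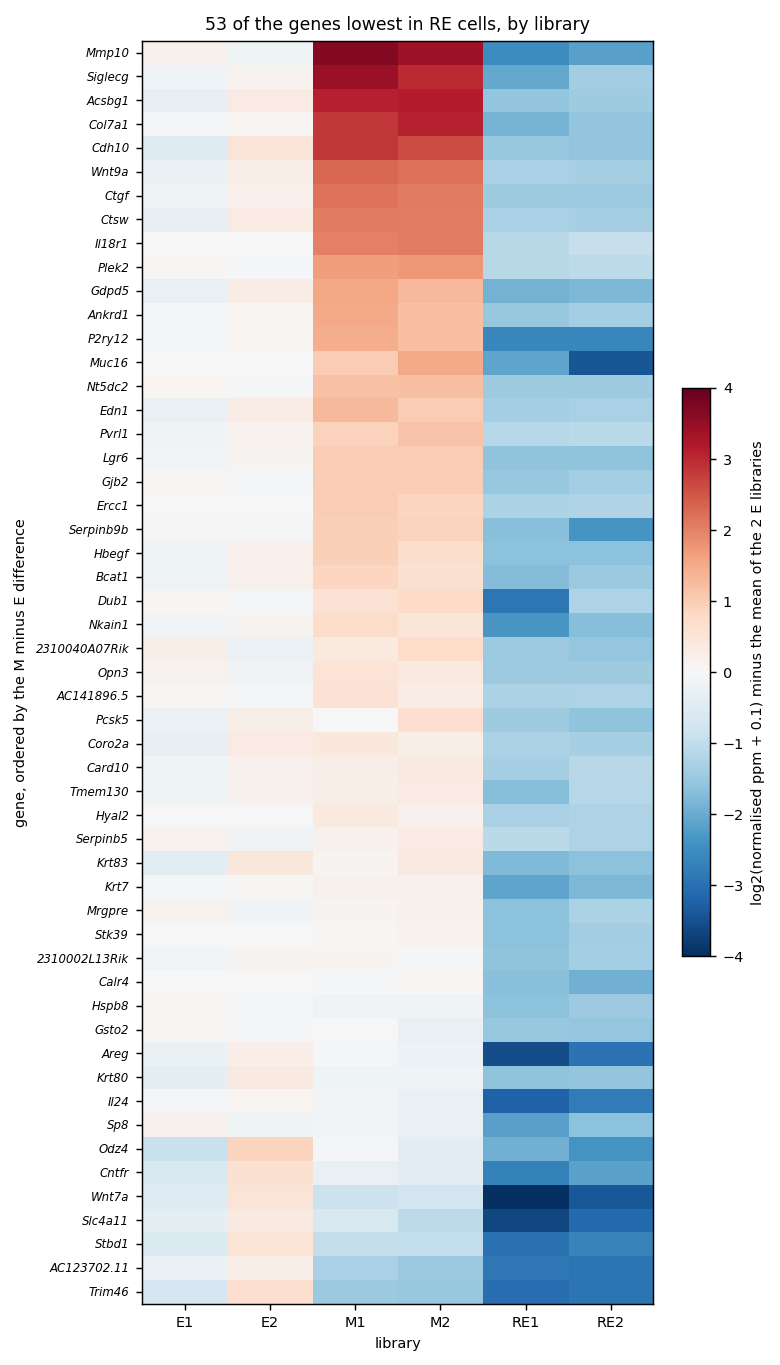
Heat map of 53 of the 54 genes (rows, ordered by the M minus E difference) in the 6 libraries (columns), as log2(normalised ppm + 0.1) minus the mean of the 2 E libraries. Both RE columns are blue in every row, as the rule requires, while the M columns run from dark red (Mmp10, 3.53 above E) to blue (Trim46, -1.51).

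The genes at the edges of the rule lie close to those left out. Just inside the fold limit were Il18r1 (ratio 2.00), Serpinb5 (2.04) and Pvrl1 (2.10), and just outside were Sh2d1b1 (1.98), 2810408A11Rik (1.97) and Blcap (1.95). With these 3, 20 genes had a ratio from 1.8 to under 2. On the library total scale of the rule, just inside the level limit were Muc16 (1.03 ppm), Serpinb9b (1.04 ppm) and Dub1 (1.10 ppm), and just outside were Ppm1j (0.974 ppm), Acap1 (0.969 ppm) and Pla2g7 (0.824 ppm). In 16 of the 54 the lowest E or M value was under 5 ppm, and in 9 it was at least 50 ppm. Each of the 54 had more than 3 reads' worth of bases in at least 1 RE library, the level treated as the floor.

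The EGF family supplied both Areg and Hbegf, which encode ligands shed from the cell surface to activate the EGF receptor. Areg was at 40.05 and 56.9 ppm in E cells, 44.9 and 40.7 in M cells, and 4.02 and 6.02 in RE cells. E and M libraries overlapped, and RE cells held a mean of 5.02 ± 1.41 ppm (SD, n = 2), 9.67-fold under the E mean and 8.53-fold under the M mean. Hbegf, the heparin-binding ligand, was at 20.4 and 27.5 ppm in E, 45.8 and 38.9 in M, and 7.57 and 7.48 in RE cells. Its order was M over E over RE, with no overlap. Of the other 10 family members tested, none was called in E vs. RE (limma; 3 higher and 2 lower at an unadjusted p under 0.05), and Erbb3, a receptor of the family, was the only one called in M vs. RE. Among the ligands not in the set, Ereg lay at 4.14 and 7.82 ppm in E and 13.5 and 16.2 ppm in RE cells, with an adjusted p of 0.0136 that missed the threshold.

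Ctgf, Ankrd1 and Areg are textbook targets of YAP/TAZ-TEAD. Ctgf, a secreted matrix-associated protein, was at 151 and 201 ppm in E, 791 and 738 in M, and 64.9 and 63.0 in RE cells. Ankrd1, an ankyrin repeat protein of nucleus and sarcomere, was at 73.7 and 82.7 ppm in E, 225 and 181 in M, and 27.5 and 30.3 in RE cells. Both were highest in M, lower in E and lowest in RE, with no overlap between stages. Ctgf shares 22.9% of its exon bases with Gm15270 on the opposite strand, and reads of the pair may not be separable in these values. The other 20 targets tested gave calls in both directions. Cyr61, the close relative of Ctgf, was at 1298 ± 4.35 ppm in E and 553 ± 104 in RE cells, a log2 change of -1.24 ± 0.18 (SE; limma adjusted p = 0.00323), but its change from M of -0.59 was not called. Wwc1 was also lower than in E, Tgfb2 was higher than in E, F3 was higher than in M, and Foxf2 and Nt5e were lower than in M. Edn1, which encodes the vasoconstrictor peptide endothelin, is not in this list of targets. It was at 6.82 and 10.47 ppm in E, 20.9 and 17.4 in M, and 3.24 and 3.36 in RE cells.

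**Figure D2:**
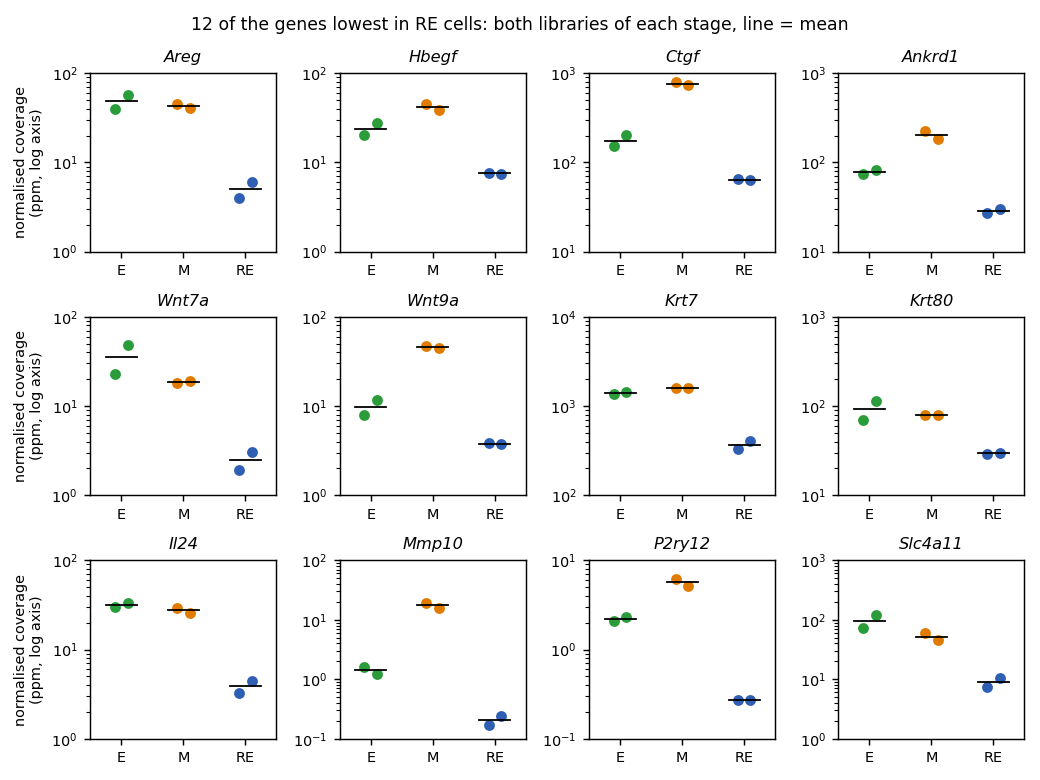
Normalised coverage in ppm (log axis, own scale per panel) of 12 of the genes in both libraries of each stage, with a line at the mean. Areg, Il24 and Krt7 are close in E and M, whereas Ctgf, Ankrd1, Wnt9a, Mmp10 and P2ry12 are highest in M. RE is lowest in all 12 panels.

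Wnt ligands bind Frizzled receptors, and Lgr6 is a receptor for R-spondins, which raise Wnt signalling. Wnt7a was at 22.9 and 47.8 ppm in E, 18.2 and 19.3 in M, and 1.94 and 3.08 in RE cells. Its E libraries differed more than 2-fold, and both lay above M and RE. Wnt9a was at 7.93 and 11.6 ppm in E, 47.2 and 44.6 in M, and 3.81 and 3.77 in RE cells, and Lgr6 was at 14.8 and 17.5, 32.7 and 32.3, and 5.26 and 5.16 ppm. In these 2 genes the order was M, E, RE. Of the 23 other Wnt ligands and receptors tested, Wnt7b was the only one called lower in both RE comparisons, with 127 and 185 ppm in E, 222 and 198 in M and 61.0 and 76.5 in RE cells (log2 change -1.16 ± 0.21 from E, adjusted p = 0.00609; -1.62 ± 0.21 from M, adjusted p = 0.00103). The receptor genes Fzd7 and Ror1 were called higher in both.

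Keratins are the intermediate filaments of epithelia. Krt7, typical of simple and glandular epithelium, was at 1372 and 1446 ppm in E, 1586 and 1583 in M, and 328 and 404 in RE cells. Krt80 was at 68.9 and 115 ppm in E, 78.9 and 78.4 in M, and 29.0 and 29.8 in RE cells. Krt83, a hair keratin, was at 7.43 and 13.8, 10.98 and 12.9, and 2.93 and 3.20 ppm. E and M overlapped for Krt80 and Krt83, both M libraries of Krt7 lay just above E, and RE lay below in all 3. Krt83 has near-identical neighbours (Krt81, Krt86), so its reads may belong in part to them. These 3 genes lie together on chromosome 15: Krt80 and Krt7 are adjacent among protein-coding genes, and 4 keratin genes separate Krt7 from Krt83. Of the tested neighbours on this stretch, Nr4a1 was highest in RE cells (109 and 124 ppm, against 67.3 and 54.5 in E), and 1700011A15Rik (Krt88 in RefSeq) was lowest there but by less, at 0.259 and 0.374 ppm against 0.456 and 0.441 in E. Grasp was lowest in RE too, at 1.92 and 1.73 ppm against 2.09 and 1.94 in E, and 4732456N10Rik was under the floor in both E and RE. Of the 13 other keratins tested, Krt18 was called lower than in E (log2 change -1.34 ± 0.19, adjusted p = 0.00305) and Krt8 lower than in M (-1.32 ± 0.15, adjusted p = 0.000529). Krt14 and Krt17 were lower than in M, Krt15 was higher than in M, and Krt79 was higher than in both.

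**Figure D3:**
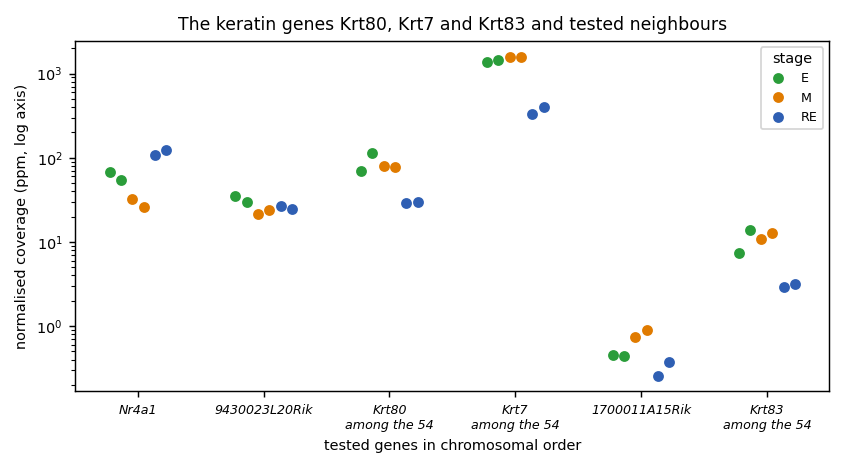
Normalised coverage in ppm (log axis) of the tested genes around Krt7 in chromosomal order, 2 libraries per stage. RE points lie lowest for Krt80, Krt7 and Krt83 and by a smaller step for 1700011A15Rik. Nr4a1 is highest in RE cells (109 and 124 ppm).

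Secreted and receptor cytokine genes were represented by Il24, Il18r1 and Cntfr. Il24, a secreted cytokine, was at 30.2 and 33.0 ppm in E, 29.2 and 25.6 in M, and 3.27 and 4.46 in RE cells. RE cells thus held 3.86 ± 0.84 ppm, 8.17-fold under E and 7.10-fold under M. Il18r1, a chain of the IL-18 receptor, was at 90.9 and 93.1 ppm in E, 375 and 377 in M, and 42.4 and 48.4 in RE cells, the smallest ratio in the set. Cntfr, the receptor chain for ciliary neurotrophic factor, was at 3.14 and 7.33, 3.90 and 3.45, and 0.649 and 1.02 ppm. It lies next to 2310040A07Rik on chromosome 4, which was at 2.98 and 2.10, 3.34 and 4.25, and 0.844 and 0.799 ppm. Of 22 other cytokines tested, Il23a, a subunit of a heterodimeric interleukin, was the only one called lower in both comparisons, at 9.33 and 11.4 ppm in E, 9.39 and 7.89 in M and 3.95 and 4.51 in RE cells (log2 change -1.27 ± 0.20 from E, adjusted p = 0.00378; -1.01 ± 0.20 from M, adjusted p = 0.00723).

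Among proteases, protease inhibitors and matrix genes, Mmp10 (stromelysin) was at 1.63 and 1.24 ppm in E, 19.4 and 15.8 in M, and 0.169 and 0.242 in RE cells, or 8 to 11 reads' worth of bases. Col7a1, the collagen of the anchoring fibrils under epithelia, was at 19.7 and 22.2 ppm in E, 149 and 177 in M, and 5.74 and 6.87 in RE cells. Both rose from a low E level and ended below it. Ctsw, a cathepsin known from cytotoxic lymphocytes, followed the same order with means of 16.0, 65.3 and 6.25 ppm in E, M and RE. Serpinb5 (maspin), a serpin of mammary epithelium, was at 55.3 and 45.8 ppm in E, 56.9 and 62.6 in M, and 23.7 and 21.5 in RE cells. Serpinb9b was near 1 ppm in E and 1.97 ± 0.06 ppm in M, and held 5 to 11 reads' worth of bases in RE cells. Serpinb9b has close relatives in the genome, so its values are uncertain. The hyaluronidase gene Hyal2 (34.8 ± 1.0, 42.3 ± 4.6 and 14.3 ± 0.5 ppm in E, M and RE) and the proprotein convertase gene Pcsk5 (1.91 ± 0.44, 2.47 ± 0.86 and 0.597 ± 0.067 ppm) complete the group.

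Receptors of the G protein-coupled class included P2ry12, Opn3 and Mrgpre. P2ry12, an ADP receptor, was at 2.08 and 2.31 ppm in E, 6.22 and 5.18 in M, and 0.275 and 0.273 in RE cells, where it held 12 and 13 reads' worth of bases. Opn3 (3.18 ± 0.46, 4.41 ± 0.30 and 1.11 ± 0.02 ppm in E, M and RE) shares 24.1% of its exon bases with Chml on the same strand. Mrgpre had means of 11.5, 12.6 and 4.13 ppm.

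At the cell surface, Gjb2 (connexin of gap junctions) was at 20.4 and 19.4 ppm in E, 39.7 and 39.8 in M, and 6.87 and 7.70 in RE cells. Cdh10, a cadherin, was at 8.24 and 16.9, 84.6 and 72.7, and 4.06 and 3.86 ppm, and Pvrl1, the adhesion molecule nectin, at 28.9 and 34.4, 59.8 and 70.1, and 14.2 and 14.9 ppm. These adhesion genes shared the order M, E, RE. Muc16, a membrane mucin, was at 0.997 and 0.961 ppm in E, 2.09 and 3.02 in M, 0.148 in RE1 and listed at 0 in RE2. Siglecg, a sialic acid-binding lectin known from B cells, was at 3.42 and 4.17 ppm in E, 42.2 and 30.3 in M, and 0.835 and 1.37 in RE cells. Odz4, a teneurin, ranged from 17.2 to 58.9 ppm within E, against 8.40 and 5.99 ppm in RE cells. Leukocyte markers are given because Siglecg, Ctsw and Il18r1 are best known from immune cells. The 6 with values summed to 6.87 to 10.6 ppm in E, 33.2 to 37 in M and 7.47 to 7.61 in RE cells. The rise in M was carried by Csf1r, while Ptprc, the pan-leukocyte gene, had at most 3 reads' worth of bases in any library and Cd3e at most 1.4. Cd68 supplied most of the sum in E and RE, and lay between 5.17 and 9.18 ppm in all 6 libraries. The part of such cells in these values was not tested further.

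Transport and metabolism genes included Slc4a11, a membrane transporter of the bicarbonate transporter family, at 71.6 and 120 ppm in E, 58.9 and 44.9 in M, and 7.37 and 10.7 in RE cells. It was highest in E and lowest in RE, with no overlap. Acsbg1, an acyl-CoA synthetase, was at 19.3 and 31.0 ppm in E, 211 and 215 in M, and 8.07 and 9.06 in RE cells. Gdpd5, a glycerophosphodiesterase, was at 47.7 and 71.6, 172 and 144, and 15.7 and 16.7 ppm. Bcat1, the cytosolic branched-chain aminotransferase, had means of 26.2 ± 5.2 ppm in E, 43.5 ± 4.8 in M and 8.48 ± 0.98 in RE cells. Stbd1, a glycogen-binding protein, had means of 60.0 ± 31.5, 28.3 ± 0.1 and 7.80 ± 1.20 ppm. Nt5dc2, Gsto2 (a glutathione transferase) and Calr4 had RE means of 5.86, 1.89 and 0.503 ppm, between 2.67-fold (Gsto2) and 6.15-fold (Nt5dc2) under their M means.

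Among signalling, cytoskeletal and nuclear genes, Card10, a scaffold that links receptors to NF-κB, was at 92.0 and 117 ppm in E, 124 and 132 in M, and 41.2 and 47.6 in RE cells. Ercc1, a subunit of the excision repair nuclease, was at 68.5 and 67.2, 135 and 122, and 28.3 and 29.5 ppm. Plek2, a pleckstrin of the actin cortex, had means of 12.4 ± 0.6 ppm in E, 40.9 ± 1.6 in M and 5.86 ± 0.17 in RE cells. Lower RE means were also seen for the kinase gene Stk39 (4.90 ppm), the coronin gene Coro2a (8.38 ppm), the microtubule-associated Trim46 (1.67 ppm), the transcription factor gene Sp8 (1.56 ppm) and the small heat shock protein gene Hspb8 (1.26 ppm). Dub1, a deubiquitinase gene with near-identical copies, held 3 and 18 reads' worth of bases in RE1 and RE2, and its values are uncertain. The remaining genes have less settled roles. 2310002L13Rik was at 82.0 and 94.6, 95.6 and 83.0, and 28.7 and 34.1 ppm, and Nkain1 at 6.65 and 7.77, 12.03 and 10.1, and 1.36 and 2.13 ppm. Tmem130, AC141896.5 and AC123702.11 had RE means of 2.09, 9.62 and 1.26 ppm. The role groups were drawn up after the members were seen.

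The rule did not fix whether a gene differed between E and M cells, so this comparison was tested. It rests on the same E and M values that chose the genes, and is not independent of that choice. limma was fitted to log2(normalised ppm + 0.1) of all 13893 genes tested, and a gene was called at a log2 change above 1 either way with a Benjamini-Hochberg adjusted p below 0.01, the thresholds in the methods of the study (its results text gives a lower fold limit). Of the 54 genes, 17 were called higher in M (31.5%, against 8.58% of all genes tested) and 1 was called lower (1.85%, against 8.39%). In either direction the share was 33.3%, against 17% of all genes. All genes tested include those under the 1 ppm limit that the 54 had to meet, so the sets are not matched for level. Nor are they matched for the fall to RE from both E and M that the rule required. How far this choice sets the balance of genes higher and lower in M was not tested. The shares and medians beside those of all genes are therefore descriptive. Both M libraries exceeded both E libraries in 35 of the 54 (64.8%, against 35.5% of all genes), both E libraries exceeded both M in 7 (against 35%), and the stages overlapped in 12. The median log2 change from E to M was 0.46 over the 54 genes and 0.00 over all genes. With library totals in place of TMM these medians were 0.16 and -0.29, and 13 genes were called higher and 2 lower.

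The largest rises in M were those of Mmp10, with a log2 change of 3.53 ± 0.26 (SE; adjusted p = 7.56e-05), and Siglecg, with 3.21 ± 0.28 (adjusted p = 0.000153). Acsbg1 rose by 3.12 ± 0.22 (adjusted p = 6.35e-05), Col7a1 by 2.95 ± 0.16 (adjusted p = 2.29e-05) and Cdh10 by 2.72 ± 0.31 (adjusted p = 0.000476). In these 5 genes neither M library overlapped with E. The other 12 were Wnt9a, Ctgf, Ctsw, Il18r1, Plek2, Gdpd5, Ankrd1, P2ry12, Nt5dc2, Edn1, Pvrl1 and Lgr6, from 2.25 down to 1.01. The single gene called lower was AC123702.11, at -1.38 ± 0.24 (adjusted p = 0.0035), with 8.15 and 12.03 ppm in E and 4.00 and 3.51 in M. These calls say nothing of RE cells, in which all 18 genes lay below both stages by the rule.

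Of the 36 genes not called, 4 missed only 1 of the 2 limits. Gjb2 had a log2 change of 0.99 ± 0.15 (adjusted p = 0.00161) and Ercc1 one of 0.92 ± 0.13 (adjusted p = 0.00121), both short of the fold limit. Trim46 (-1.51 ± 0.39, adjusted p = 0.0177) and Muc16 (1.28 ± 0.45, adjusted p = 0.0547) passed the fold but not the p. Genes with the smallest differences were Calr4 (0.00 ± 0.24) and 2310002L13Rik (0.02 ± 0.16), and those of Areg (-0.16 ± 0.24), Il24 (-0.20 ± 0.19) and Krt7 (0.17 ± 0.16) were within about 1 SE of 0. A missed threshold does not show that E and M were equal. Over all genes tested, calls in E vs. M fell in number without an M or an RE library and rose without an E library. Without M1 10 genes were called higher and 0 lower, and without M2 11 and 0 (limma; 3 and 2 lower at an unadjusted p under 0.05). The count of genes called lower was also 0 without RE1 and without RE2 (4 and 4 lower at an unadjusted p under 0.05), and 6 without E1.

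**Figure D4:**
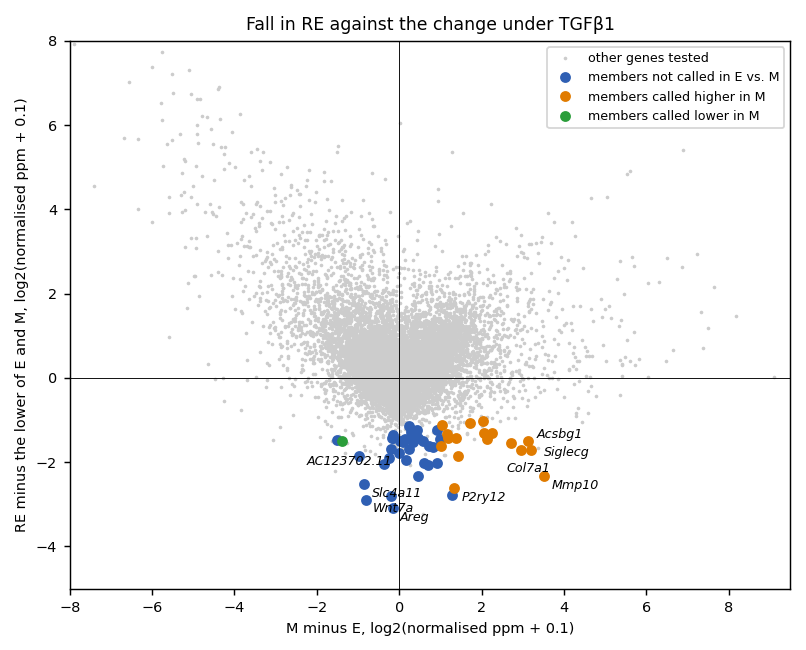
Each of the 13893 genes tested as the log2 change from E to M (x axis) and from the lower of E and M to RE (y axis), on log2(normalised ppm + 0.1), with the 54 genes coloured by their E vs. M call and 5 genes outside the axes. The 17 genes called higher in M (orange) spread to the right up to Mmp10, and AC123702.11 (green) is the only one called lower.

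To place the 54 genes among their pathways, 15 gene lists were examined in E vs. RE and M vs. RE, leaving out the 54 themselves. The 2 comparisons share the RE libraries. The lists were chosen with earlier results of these data known, so their shares beside those of all genes are descriptive. Of the 291 listed genes tested, 38 (13.1%) were called lower than in E and 22 (7.56%) higher, against 3.17% and 6.2% of all genes (9.37% either way). In M vs. RE, 37 (12.7%) were called lower and 43 (14.8%) higher, against 4.79% and 8.08% (12.9% either way). With library totals the split in M vs. RE was 24 lower and 52 higher. Beside Wnt7b and Il23a, Dusp7, a phosphatase that acts on ERK, was the only listed gene called lower in both, at 59.1 and 87.5 ppm in E, 42.7 and 48.5 in M, and 21.4 and 24.1 in RE cells. Its log2 change was -1.66 ± 0.20 from E (adjusted p = 0.00155) and -1.001 ± 0.202 from M (adjusted p = 0.00847), and the M vs. RE calls of Dusp7 and Il23a were lost under 5 and 6 of the 9 other settings tried, their log2 changes ranging from -0.80 to -1.001 and from -0.81 to -1.01 there. Leaving out M1, M2 or RE1 also ended the M vs. RE calls of all 3 genes.

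The ATF4 amino acid response held the most calls against E. Of 28 genes, 14 were lower in RE than in E, among them Asns, Chac1 and Trib3, and Slc38a2 was higher, with a list median of -1.04 on the log2 scale. In E vs. M, 11 of the 28 were called lower in M and 1 higher, with a list median of -0.78. Against M, 0 were called lower (6 at an unadjusted p under 0.05) and 3 higher. Of 23 p53 target genes, 5 were lower than in E (Cdkn1a, Zmat3, Plk2, Gdf15 and Psrc1) and Sesn1 was higher, while against M 3 were higher and 0 lower (11 lower at an unadjusted p under 0.05). Of 24 ERK feedback and target genes, Dusp5, Dusp7, Spry1 and Myc were lower than in E and 2 were higher, and against M 3 were lower and 6 higher. Of 14 AP-1 genes, Fos, Fosb and Atf3 were lower than in E and 0 higher (1 at an unadjusted p under 0.05), whereas Fos and Jun were higher than in M and 0 lower (2 at an unadjusted p under 0.05).

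The plasminogen system had 0 calls among 7 genes in E vs. RE (1 higher and 2 lower at an unadjusted p under 0.05). In M vs. RE, 4 were lower, among them the protease genes Plau and Plat and the receptor gene Plaur, and 0 were higher, also at an unadjusted p under 0.05. Of 21 serum response factor and actin genes, 9 were lower than in M and 1 higher, while 3 were higher than in E and 0 lower (2 at an unadjusted p under 0.05). Of 16 cornified envelope and hemidesmosome genes, 6 were lower than in M, among them the laminin genes Lama3 and Lamb3, and 3 were higher. Against E, 2 were lower and 0 higher (3 at an unadjusted p under 0.05). In these 3 lists the calls lower in RE came mainly from the comparison with M.

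Of 22 cholesterol synthesis genes, 6 were higher than in E and 2 higher than in M, with 0 lower in either (0 and 1 at an unadjusted p under 0.05). Of 22 hypoxia genes, 2 were lower than in E and 0 higher (1 at an unadjusted p under 0.05), and 3 were lower and 4 higher than in M. Of 30 interferon-stimulated genes, 1 was lower and 1 higher than in E, and 2 were lower and 5 higher than in M. Among the 22 cytokines 3 were lower and 3 higher than in E, and 2 lower and 6 higher than in M. The 23 Wnt genes gave 1 lower and 3 higher against E and 3 lower and 4 higher against M. Calls in E vs. RE fell in number when an RE or an M library was left out, and rose without an E library. This held over all genes tested and not only for the listed genes. Without RE1, 0 of the listed genes were called in E vs. RE (limma; 44 higher and 69 lower at an unadjusted p under 0.05) and without RE2 8, against 60 with all libraries. Without M1 or M2 the count was 32, and in M vs. RE it was 37 without M1, 37 without M2, 38 without RE1 and 44 without RE2, against 80.

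**Figure D5:**
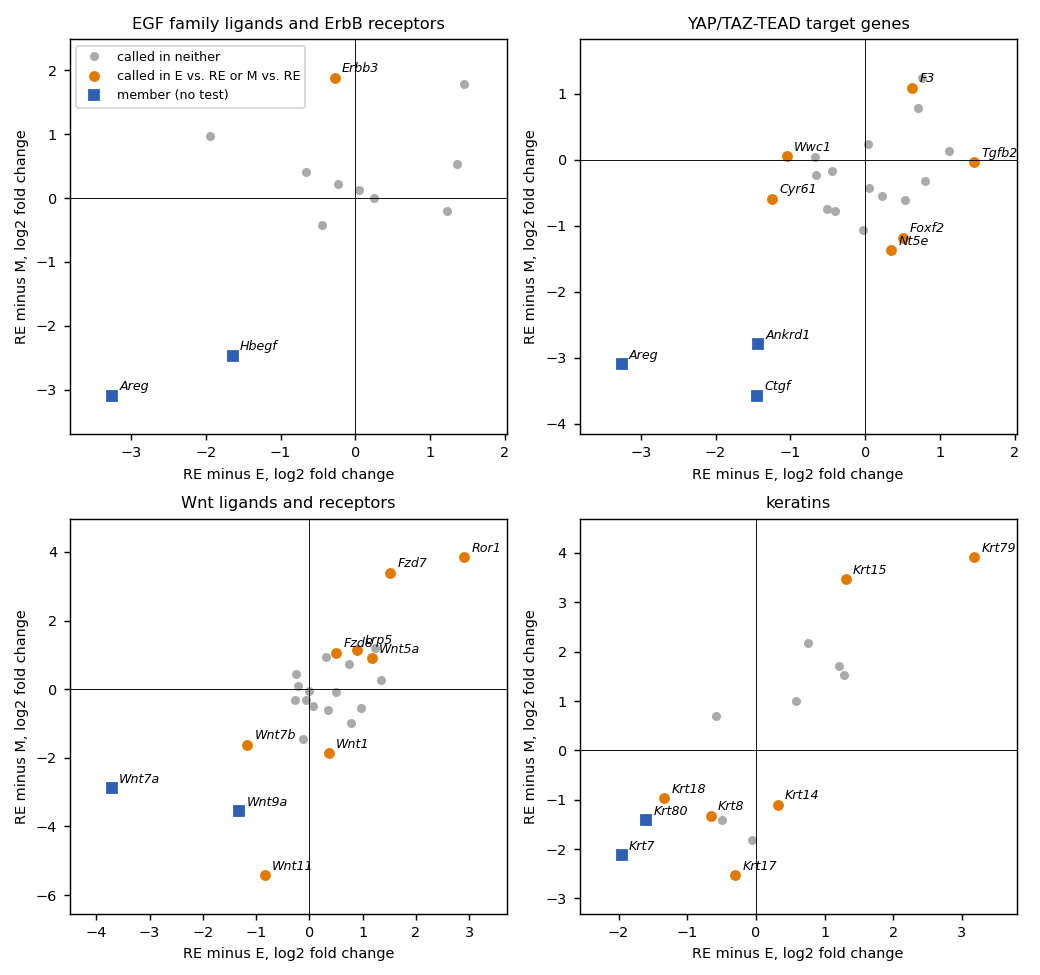
Log2 change from E to RE (x axis) and from M to RE (y axis) of the tested genes of 4 lists, with squares for the genes among the 54 (chosen by these values, not tested) and orange for other genes called in either comparison. Areg and Hbegf are low on both axes, as the rule requires, and the other Wnt and keratin genes lie in several quadrants.

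In features the rule did not use, the 54 genes are given beside all genes tested, with no test. GENCODE M21 transcripts were matched for 52 of them (96.3%). Their median longest transcript was 2842 bases, against 3351 over all genes tested, and their median GC content was 52.5%, against 49.9%. The standard deviation of GC content between genes was 6.43 and 6.23 percentage points. Of the 52 genes found in GENCODE M21, 13 share exon bases with another gene, but only Ctgf and Opn3 share at least 10%. Besides the keratin genes, Cntfr and 2310040A07Rik are adjacent among protein-coding genes.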

How the data were processed

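RNA from E, M and RE cells (2 libraries each) had been sequenced on an Illumina Genome Analyzer. Per the submitters' processing notes and methods, the authors mapped unique reads to NCBI-m37 with Bowtie and TopHat2, and used edgeR. How bases were summed over genes, with which annotation and which tool versions, is not given in the sources used here. The authors deposited 1 table of raw coverage (signal), that is, whole numbers of summed bases per gene and library, of which 44.8% to 48.4% of the values up to 400 are multiples of 50. edgeR, which needs counts, was not used here.

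The 54 genes were found by the rule on ppm of the library total. Members, gene lists and the rule for named genes were chosen with earlier results of these data known. Coverage was then scaled by unweighted TMM (trimming 30% by log ratio and 5% by mean level, factors 0.871 to 1.12) in R 4.3.3. Genes entered the test when 2 or more libraries reached 500 bases (13893). The model was limma 3.58.1 on log2(ppm + 0.1) of all 6 libraries, group only, with a trend on mean level. A log2 change on this scale understates that of low genes. The fit was tested on simulated data.

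Named genes are the 12 with the largest ratio, those in a list, the 8 with the most coverage, the 3 on each side of each limit, the 5 with the largest E vs. M change in each direction, and listed genes called the same way in both RE comparisons. Other genes of the 54 are named to account for the set, a few items the rule covers are left out of this text, and further listed genes were named after their values were seen. A floor of 3 reads' worth of bases corresponds to 0.0635 to 0.0781 ppm and covers counting error only. Alternatives were other scalings, pseudocounts (0.025 and 1), no filter, other thresholds and limits of the rule, only the 2 groups compared, a replicate block, and leaving out each library. Promoters and gene order came from RefSeq, and transcripts and exon overlaps from GENCODE. Both are on a later build than the authors', so no position was taken from the deposited table.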

Additional observations from a re-analysis of the deposited data

How the results depend on the processing

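The rule gave 54 genes with TMM-normalised ppm too (45 of them shared), 38 at a 5 ppm minimum, 14 with RE at most 1/3 and 139 with RE at most 2/3 of the lowest E or M value, and 59 to 106 with 1 library left out, the most without RE2. Of these genes, 10 to 21 were called in E vs. M with 1 library left out, 10 to 18 higher in M and 0 to 6 lower. The number lower was 2 with library totals and 2 at an adjusted p of 0.05. Mmp10, Siglecg, Acsbg1, Col7a1, Cdh10, Wnt9a, Ctgf, Ctsw, Il18r1 and Plek2 were called under all 15 alternatives. Edn1 lost its call in 8, Lgr6 in 5, Pvrl1, P2ry12 and AC123702.11 in 4, Nt5dc2 in 3, Gdpd5 in 2 and Ankrd1 in 1.

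For listed genes outside the 54, E vs. RE gave 34 calls (13 higher, 21 lower) in a fit of only the 2 groups, and 35 higher at an adjusted p of 0.05. With 1 library left out it gave 0 to 82 calls (0 to 43 higher, 0 to 48 lower), the 0 being without RE1, where limma gave 44 higher and 69 lower at an unadjusted p under 0.05. M vs. RE gave 24 lower with library totals, and 37 to 97 calls (21 to 56 higher, 12 to 43 lower) with 1 library left out. The cause was not tested, beyond that a stage with 1 library is assumed to vary like the others. Over single named genes, 385 of 414 values under other settings and 183 of 272 with 1 library left out kept their side of the threshold, and the rest lost their call with no change of sign. Cnn1 fell under the filter when an RE library was left out and has no value there.

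Replicate numbers are shared by the stages, but same-numbered deviations correlated by only 0.058 for E with RE and 0.116 for M with RE (0.267 for E with M), over 2 numbers, so they were not taken to pair the libraries. With a replicate block 18 of the 54 genes were called in E vs. M (17 higher, 1 lower), and 63 and 84 listed genes in E vs. RE and M vs. RE. The promoter motif share against another background was not run, since too few of the genes have a promoter. The GC difference of 2.6 percentage points became 2.8 against genes of at least 1 ppm in E and M. Library totals shifted the median of all genes by -0.29 (E vs. M), -0.08 (E vs. RE) and 0.18 (M vs. RE). Depth limits the RE values of Muc16 and Dub1, which reach the floor in 1 RE library each.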

Other observations

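Of the listed genes outside the 54, 11 were called higher in RE than in both E and M, comparisons that share the RE libraries. Sesn1, a stress-induced regulator of growth signalling, was at 30.5 and 22.0 ppm in E, 27.5 and 24.98 in M, and 129 and 113 in RE cells, a log2 change of 2.21 ± 0.18 from E (SE; limma adjusted p = 0.000461) and 2.19 ± 0.18 from M (adjusted p = 0.000137). E and M overlapped for Sesn1. The Wnt receptor genes Ror1 (2.70 and 3.97 ppm in E, 1.44 and 1.94 in M, 29.9 and 21.4 in RE) and Fzd7 (98.2 and 60.9, 21.6 and 20.5, 238 and 206 ppm) were among them. The ligand gene Wnt5a was at 13.4 and 14.9 ppm in E, 16.0 and 18.2 in M, and 30.3 and 33.4 in RE cells, called against E (adjusted p = 0.00208) but not against M. The chemokine genes Cxcl1 (39.9 and 24.8, 7.03 and 7.27, 89.9 and 91.5 ppm) and Cxcl2 (1.67 and 1.16, 0.243 and 0.210, 9.47 and 10.4 ppm) were lowest in M and highest in RE cells. The sterol genes Insig1 and Idi1 rose by 1.16 ± 0.19 and 1.54 ± 0.21 from E (adjusted p = 0.00434 and 0.00234) and by 1.12 ± 0.19 and 1.43 ± 0.21 from M (adjusted p = 0.00355 and 0.00202). Krt79, Cnn1, Egr2 and Il1rn complete the list. Without RE1 no gene of this list was called in E vs. RE (limma adjusted p from 0.0136 for Sesn1 to 0.0808 for Il1rn, with Cnn1 under the filter), and without RE2 only Sesn1 and Ror1 were. Egr2, Il1rn, Cxcl1, Fzd7 and Insig1 also lost that call in a fit of only the 2 groups and without M1 or M2.

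On the normalised scale the rule also takes 9 genes that library totals leave out, among them 6030419C18Rik, Tmprss11e and Nmnat2, with ratios of 2.31, 2.14 and 2.16. It drops Il18r1, Serpinb5, Pvrl1, Card10, Coro2a, Tmem130 and Ctsw, with ratios of 1.88 to 1.98, and Muc16 and Serpinb9b, with lowest E values of 0.961 and 0.965 ppm. These genes were named after their values were seen.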
